A study of Homo sapiens with 24 samples.

Results

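A cell enters mitosis when cyclin B activates the kinase CDK1, and the kinase Aurora A (AURKA) helps by switching on Polo-like kinase 1 (PLK1) together with its cofactor BORA. At kinetochores that the spindle has not yet captured, the spindle assembly checkpoint, built from BUB and MAD proteins and the kinase TTK, holds back CDC20, the activator of the ubiquitin ligase called the anaphase-promoting complex (APC/C). Once every chromosome is attached, APC/C with CDC20 marks securin and cyclin B for destruction, separase opens cohesin, and the sister chromatids part. Transcripts of many of these proteins are made in G2 and mitosis, and they are abundant in dividing tumor cells such as those of glioblastoma (GBM).

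The genes described here are 55 genes of this machinery, named by function: 8 of mitotic entry, 10 of the spindle pole and spindle assembly, 7 of the chromosomal passenger complex and of cohesion, 8 of the spindle checkpoint, 8 of the kinetochore, 5 of mitotic exit, 6 of condensin and chromosome structure and 3 of cytokinesis. Each was found on the array by the RefSeq transcript of its probes, and they are 55 of the 24847 gene symbols that the probes named. All 55 passed the filter on dim probes, which left 14235 symbols to be tested. For 54 of them the brightest probe was well above background on all 24 arrays, the exception being the condensin gene *NCAPH*, and no member had a saturated spot.

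The arrays measured RNA of U251 cells, a human GBM line, after exposure to G-1, an agonist of the G protein-coupled estrogen receptor GPER, to ask which transcripts change with dose and duration. The 6 groups, of 4 independent cultures each, came from 3 treatments and 2 durations: the solvent DMSO, a dose of G-1 called IC50, or 1 µM of it, for 24 h or for 72 h. The IC50 dose was the lower of both, set by the study from the number of metabolically active cells at 72 h. All cells, controls included, came from this single line, grew without phenol red and were kept in charcoal-stripped serum, which lacks steroid hormones, before exposure, and the labels give the control as 0.1% DMSO, whereas the study's methods give another concentration. For the group G-1 IC50 24 h, and likewise for the group G-1 1 µM 72 h, the labels contradict themselves on duration, and the sample titles were used here.

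Of the 3 slides of 8 arrays, the third held both durations of G-1 1 µM and nothing else, and it was scanned in a session of its own, so that at a single duration the slide and the 1 µM dose cannot be told apart. Per array, 38.0% to 40.7% of spots were well above background on that slide, and 41.1% to 44.5% on the others. Astroglial genes were well above background on all 24 arrays (*VIM*, *NES*, *CD44*, *GFAP*, *S100B* and *SOX2*), and the microglial, endothelial and epithelial genes *PTPRC*, *AIF1*, *CX3CR1*, *PECAM1*, *EPCAM* and *CDH1* were not well above background on any. The endothelial gene *CDH5* was dim and reached that level on some arrays, and the neuronal genes *SYT1* and *RBFOX3* reached it on all. At 72 h of G-1 1 µM, all 6 astroglial genes were lower than in DMSO, *GFAP*, *S100B* and *SOX2* by log2 fold changes of -2.71, -1.96 and -0.84 and *VIM*, *NES* and *CD44* by -0.25, -0.32 and -0.39, while *SYT1* was higher (0.98) and *RBFOX3* lower (-1.58), all called, and their part in the results on mitotic genes was not tested.

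Many mitotic genes are known to share promoter elements, the cell cycle homology region (CHR), which the DREAM and MuvB complexes bind, and the CCAAT box, which NF-Y binds. The promoters of 6 members are shown for this reason, from 250 bases before to 50 bases after the annotated start, as listed in a RefSeq table of the build GRCh38.p14, 5′ to 3′ on the strand of the gene, with matches to CHR letters (TTTGAA or TTCGAA) and to CCAAT on either strand in capitals. *PLK1* (chr16:23678639-23678938, plus strand), *CDC20* (chr1:43358731-43359030, plus strand), *BORA* (chr13:72727673-72727972, plus strand) and *CDCA8* (chr1:37692266-37692565, plus strand) rose with G-1 1 µM. *CCNB1* (chr5:69166900-69167199, plus strand) rose as well, without CHR letters in its window, and *NUSAP1* (chr15:41332631-41332930, plus strand) fell at 72 h. In *CDCA8* a CHR match and a CCAAT match overlap.
PLK1: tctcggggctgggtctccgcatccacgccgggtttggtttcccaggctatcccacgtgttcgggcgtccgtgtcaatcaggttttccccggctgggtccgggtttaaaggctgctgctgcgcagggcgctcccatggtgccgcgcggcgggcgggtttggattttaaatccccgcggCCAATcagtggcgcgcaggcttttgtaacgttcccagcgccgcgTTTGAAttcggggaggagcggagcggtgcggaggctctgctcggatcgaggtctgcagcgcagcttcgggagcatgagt
CDC20: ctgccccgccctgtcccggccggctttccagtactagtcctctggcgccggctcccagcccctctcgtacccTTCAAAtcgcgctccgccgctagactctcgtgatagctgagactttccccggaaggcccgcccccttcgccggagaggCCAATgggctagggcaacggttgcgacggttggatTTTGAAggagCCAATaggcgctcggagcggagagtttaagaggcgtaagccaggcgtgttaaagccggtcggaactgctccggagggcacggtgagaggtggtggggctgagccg
BORA: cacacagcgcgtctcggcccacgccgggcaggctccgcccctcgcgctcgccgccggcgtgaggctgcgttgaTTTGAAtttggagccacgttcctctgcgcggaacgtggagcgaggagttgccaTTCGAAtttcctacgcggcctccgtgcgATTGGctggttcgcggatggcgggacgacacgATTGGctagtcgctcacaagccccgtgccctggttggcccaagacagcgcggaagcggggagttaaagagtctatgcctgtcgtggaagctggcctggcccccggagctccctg
CDCA8: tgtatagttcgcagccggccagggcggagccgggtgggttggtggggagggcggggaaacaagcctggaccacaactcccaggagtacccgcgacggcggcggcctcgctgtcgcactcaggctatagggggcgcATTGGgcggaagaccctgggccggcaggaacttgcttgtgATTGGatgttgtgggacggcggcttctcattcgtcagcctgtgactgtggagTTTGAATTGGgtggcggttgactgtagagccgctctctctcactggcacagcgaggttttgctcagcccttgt
CCNB1: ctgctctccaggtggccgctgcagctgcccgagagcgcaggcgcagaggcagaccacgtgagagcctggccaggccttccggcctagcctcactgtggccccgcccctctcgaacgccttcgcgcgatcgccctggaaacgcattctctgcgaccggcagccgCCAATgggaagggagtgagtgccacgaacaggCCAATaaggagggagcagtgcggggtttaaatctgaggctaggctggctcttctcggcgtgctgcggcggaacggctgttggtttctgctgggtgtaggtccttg
NUSAP1: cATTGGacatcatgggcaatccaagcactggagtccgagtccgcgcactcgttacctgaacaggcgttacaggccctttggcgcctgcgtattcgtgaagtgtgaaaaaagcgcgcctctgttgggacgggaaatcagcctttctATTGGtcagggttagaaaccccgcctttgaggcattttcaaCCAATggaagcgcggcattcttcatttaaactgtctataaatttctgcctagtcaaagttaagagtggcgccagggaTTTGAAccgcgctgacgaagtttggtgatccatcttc

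The table listed 46 of the 55 members, the first entry being used where it gave several. *AURKA*, *FOXM1*, *TPX2*, *TROAP*, *BIRC5*, *TTK*, *BUB3*, *KNL1* and *UBE2C* were not listed. CHR letters were in 33 of the 46 promoters (71.7%), against 16.6% of 27305 genes in the table and 11.5% of the 11264 tested genes with an entry. A CCAAT match was in 31 of 46 (67.4%), against 35.7% of all, and both were in 22 of 46 (47.8%), against 6.58% of all. Letters of an E2F element (TTCGCGC or TTGGCGC, on either strand) were in 8 of 46 (17.4%), against 5.18% of all and 8.43% of the tested genes. CHR letters within 50 bases of the start were in 24 of 46 members (52.2%), against 5.05% of all genes. In *BORA* and *CDC20* the matches lay further before the start. In the 50 bases before it, 16 members (34.8%) had a match, against 2.74% of all genes, and in the first 50 bases from it 9 members (19.6%), against 2.45%. The first letters of the matches lay 29 bases before the start in *PLK1*, 23 before it in *CDCA8* and in *BUB1B*, and 18 before it in *CENPA*. CHR letters were in 25 of 35 members that rose at 72 h of G-1 1 µM (71.4%) and in 8 of 11 other members (72.7%). Within 50 bases of the start they were in 20 of 35 (57.1%) and 4 of 11 (36.4%), and at least 2 CCAAT matches were in 12 of 35 (34.3%) and 7 of 11 (63.6%). These shares were not tested against each other, and among all tested genes that rose at 72 h CHR letters were in 13.5%. A match describes these letters only and does not show a bound site.

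**Figure D1:**
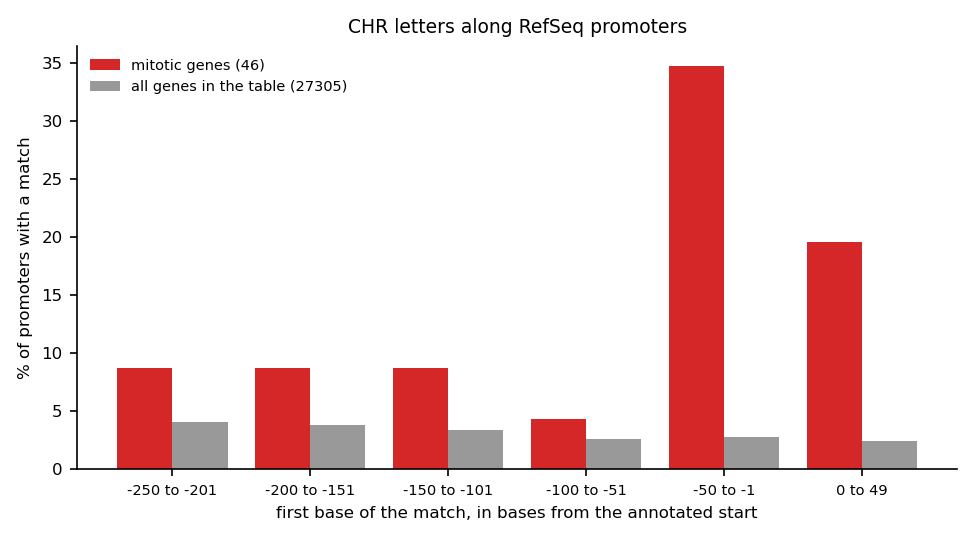
Share of RefSeq promoters (vertical axis, %) with CHR letters whose first base lies in each window of 50 bases (horizontal axis, bases from the annotated start), for 46 mitotic genes in red and 27305 genes in grey. The red bars stand highest in the windows on either side of the start, at 34.8% and 19.6%, where the grey bars are at 2.74% and 2.45%.

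With 24 h of G-1 1 µM, 33 of the 55 mitotic genes rose against DMSO and none fell, and at 72 h 41 rose and 2 fell. By the brightest probe of each gene, Aurora A led at 72 h, 3.03-fold over DMSO, and the spindle protein *TROAP* led at 24 h, 2.42-fold. A dimmer probe of *CDK1* at 24 h and of *PLK1* at 72 h rose more. The transcripts that rose reached from the cyclins of entry to the ring protein anillin of cytokinesis. By their brightest probes 10 members were not called at either duration, among them *SMC2*, *NCAPD2*, *BUB3* and *TOP2A*. Dimmer probes of *SMC2*, *NCAPD2* and *BUB3* rose at 72 h. In RNA from whole cultures, a larger share of cells at a stage of the cycle and more transcript per cell cannot be told apart. Calls are those of limma with Benjamini-Hochberg adjustment over all 22970 tested probes at an adjusted p under 0.05, for the brightest probe of each gene, and every level is a log2 intensity relative to the 75th percentile of its array.

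The 33 members that rose at 24 h are 60.0% of the 55. Over all 14235 genes tested, 30.6% were called at 24 h, 20.0% as higher and 10.5% as lower. Of all calls at 24 h, 65.5% were higher ones, a share that was 54.3% with quantile normalization, 49.7% with normexp background correction and 44.2% with scaling to the 50th percentile. The median log2 fold change was 0.44 over the members and 0.04 over all genes. At 72 h, the 41 higher members are 74.5% of the list, against 35.2% of all genes called higher, 31.0% called lower and 66.1% called in either direction, and the median was 0.76 over the members and 0.03 over all genes. The groups did not overlap, all 4 arrays of G-1 1 µM lying above all 4 of DMSO, for 26 members at 24 h (19.5% of all genes) and for 41 at 72 h (31.2% of all genes), where the 2 lower members did not overlap either (27.5% of all genes). With the study's threshold of an absolute fold change (|FC|) above 2 added, 5 members passed at 24 h, which were *AURKA*, *TROAP*, *CDC20*, *PLK1* and *BORA* (0.513% of all genes were higher by this rule), and 15 passed at 72 h (4.92%). The study named *AURKA*, *BORA*, *PLK1* and *CDC20* from these same arrays by this threshold, and the members were chosen with earlier results known. Setting the members' counts beside the shares of all genes is thus no independent support. Scaling to the 50th percentile left 21 higher members at 24 h and 38 at 72 h. When a probe had to be well above background on each of the 24 arrays, which leaves out *NCAPH*, 33 members rose at 24 h, and 41 rose and 2 fell at 72 h. Since *NCAPH* was among the 41 of the main fit, the 41 under this filter include a member that the main fit did not call.

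**Figure D2:**
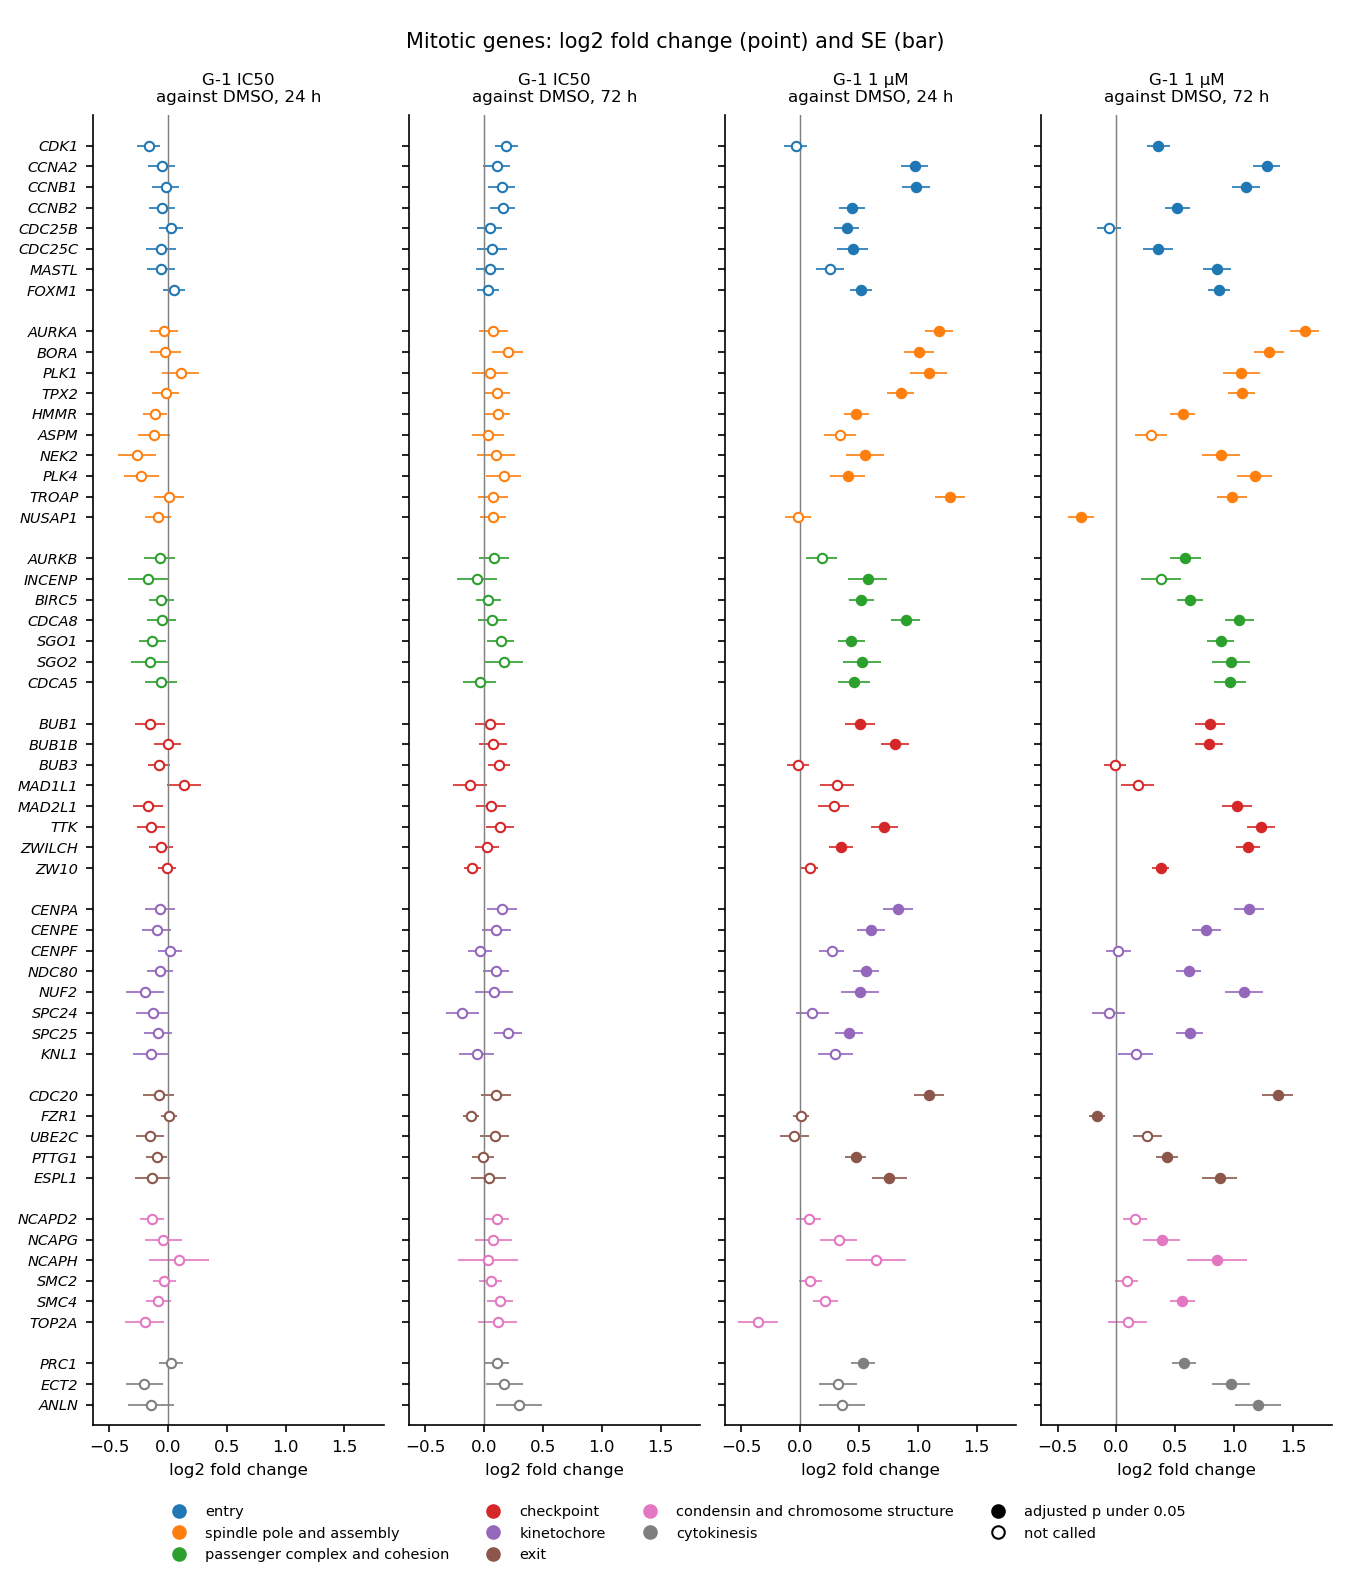
Log2 fold change (horizontal axes, bars SE) of the 55 mitotic genes, ordered by role, for both doses of G-1 against DMSO at 24 h and 72 h, from 4 arrays per group. Filled points passed an adjusted p of 0.05, and none did at the IC50, while 33 did at 1 µM 24 h and 43 at 1 µM 72 h.

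Among the spindle pole and assembly genes, 8 of 10 rose at 24 h and 8 at 72 h, with medians of 0.70 and 1.02, the highest median of the 8 role groups at both durations. This group holds *AURKA*, *BORA* and *PLK1*, which the study named from these arrays, so its rank is not independent of that choice. *AURKA*, the kinase of the spindle pole, was at 4.49, 4.68, 4.26 and 4.19 on the DMSO arrays at 24 h, 4.54, 4.51, 4.18 and 4.26 with G-1 IC50 and 5.66, 5.75, 5.64 and 5.28 with G-1 1 µM. At 72 h it was at 4.31, 4.49, 4.44 and 4.35 in DMSO, 4.61, 4.59, 4.22 and 4.48 with G-1 IC50 and 6.07, 5.81, 6.09 and 6.02 with G-1 1 µM. The arrays of G-1 1 µM stood above those of DMSO and of the IC50 at both durations, while the latter overlapped each other. Its log2 fold change was 1.18 ± 0.12 (SE, adjusted p = 3.16e-06) at 24 h and 1.60 ± 0.12 (adjusted p = 7.09e-10) at 72 h.

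*BORA*, the cofactor through which Aurora A activates *PLK1*, had values of 0.98, 1.34, 0.82 and 0.70 in DMSO, 0.97, 1.23, 0.69 and 0.85 with G-1 IC50 and 2.13, 2.20, 1.90 and 1.65 with G-1 1 µM at 24 h. The corresponding values at 72 h were 0.88, 0.96, 0.92 and 0.93 in DMSO, 1.17, 1.17, 1.12 and 1.03 at the IC50 and 2.24, 2.04, 2.33 and 2.27 with G-1 1 µM. G-1 1 µM lay above the other groups at both durations, and at 72 h the IC50 arrays also lay above DMSO without overlap, with a log2 fold change of 0.20 ± 0.13 that was not called (adjusted p = 0.725). The changes with G-1 1 µM were 1.01 ± 0.13 (adjusted p = 2.84e-05) and 1.30 ± 0.13 (adjusted p = 3.48e-08). *PLK1*, the kinase of centrosome maturation and spindle assembly, was at 2.50, 2.83, 2.48 and 2.22 in DMSO, 2.90, 2.77, 2.49 and 2.30 with G-1 IC50 and 3.86, 3.70, 3.56 and 3.27 with G-1 1 µM at 24 h. The 72 h arrays of *PLK1* read 2.78, 2.85, 2.97 and 2.75 in DMSO, 2.97, 2.82, 3.15 and 2.61 at the IC50 and 3.62, 3.90, 4.18 and 3.90 with G-1 1 µM. No array of G-1 1 µM overlapped another treatment of its duration. *PLK1* changed by 1.09 ± 0.16 (adjusted p = 7.14e-05) and 1.06 ± 0.16 (adjusted p = 5.69e-06), and its dimmer second probe rose by 0.89 at 24 h and 1.70 at 72 h.

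*TROAP*, a protein of the spindle and its poles, had the largest change of the list at 24 h by brightest probes. On the DMSO arrays it was at 4.50, 4.39, 4.17 and 4.06, with G-1 IC50 at 4.44, 4.54, 4.21 and 3.96 and with G-1 1 µM at 5.75, 5.59, 5.57 and 5.31. After 72 h the values were 4.39, 4.48, 4.65 and 4.45 in DMSO, 4.67, 4.56, 4.72 and 4.31 at the IC50 and 5.29, 5.46, 5.58 and 5.57 with G-1 1 µM. G-1 1 µM was again the separate group, at 1.27 ± 0.13 (adjusted p = 2.87e-06) and 0.98 ± 0.13 (adjusted p = 1.19e-06). *TPX2*, which activates Aurora A on spindle microtubules, rose by 0.85 and 1.06. *HMMR*, a spindle protein, *NEK2*, a kinase of centrosome separation, and *PLK4*, the kinase of centriole duplication, rose by 0.48, 0.55 and 0.40 at 24 h and by 0.56, 0.89 and 1.17 at 72 h. *ASPM*, a protein of spindle poles, was not called by its brightest probe (0.34 and 0.29), and *NUSAP1*, which binds and bundles spindle microtubules, was at -0.02 at 24 h and fell at 72 h, by a log2 fold change of -0.30 ± 0.11 (adjusted p = 0.0191). Its arrays read 5.95, 5.99, 6.02 and 5.95 in DMSO and 5.81, 5.45, 5.69 and 5.76 with G-1 1 µM, which did not overlap, and the call was lost without replicate 2 of G-1 1 µM 72 h (-0.23, adjusted p = 0.0806).

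Of the 8 genes of mitotic entry, 6 rose at 24 h and 7 at 72 h. *CCNB1*, the cyclin B partner of *CDK1*, was at 6.29, 6.44, 6.15 and 5.97 in DMSO, 6.36, 6.39, 6.05 and 5.97 with G-1 IC50 and 7.40, 7.29, 7.19 and 6.90 with G-1 1 µM at 24 h. Its values at 72 h were 6.20, 6.31, 6.34 and 6.09 in DMSO, 6.32, 6.42, 6.46 and 6.33 at the IC50 and 7.44, 7.12, 7.38 and 7.40 with G-1 1 µM. G-1 1 µM stood above the other treatments without overlap. *CCNA2*, the cyclin of S phase and G2, showed 2.90, 3.16, 2.70 and 2.67 in DMSO, 2.94, 2.96, 2.68 and 2.63 with the IC50 and 3.96, 3.94, 3.82 and 3.59 with G-1 1 µM at 24 h. At 72 h *CCNA2* was at 2.76, 2.89, 3.01 and 2.82 in DMSO, 2.89, 2.99, 3.17 and 2.88 at the IC50 and 4.19, 3.95, 4.18 and 4.28 with G-1 1 µM. Here too every G-1 1 µM array stood above every other array of its duration. *CCNB1* changed by 0.98 ± 0.12 (adjusted p = 1.39e-05) and 1.10 ± 0.12 (adjusted p = 8.97e-08), and *CCNA2* by 0.97 ± 0.11 (adjusted p = 1.07e-05) and 1.28 ± 0.11 (adjusted p = 7.14e-09).

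The other entry genes had smaller changes by their brightest probes. *CCNB2* rose by 0.44 and 0.52, and *CDC25C*, a phosphatase that activates *CDK1*, by 0.44 and 0.36. *CDC25B*, the phosphatase that starts *CDK1* activation, rose at 24 h (0.39) and was at -0.06 at 72 h. *FOXM1*, a transcription factor of G2 and M genes, rose by 0.52 and 0.87, and *MASTL*, the Greatwall kinase that restrains the phosphatase PP2A, was not called at 24 h (0.25) and rose at 72 h (0.85). *CDK1* itself was at -0.04 at 24 h and rose by 0.35 at 72 h by its brightest probe, while a second, dimmer probe for another transcript rose by 1.53 and 1.28.

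In the group of the passenger complex and cohesion, 6 of 7 genes rose at each duration. *CDCA8*, which encodes borealin, a subunit of the passenger complex that corrects wrong attachments, was at 6.18, 6.13, 5.91 and 5.70 in DMSO, 5.98, 6.21, 5.86 and 5.65 with G-1 IC50 and 7.14, 6.88, 6.89 and 6.59 with G-1 1 µM at 24 h. The values of 72 h were 5.87, 5.98, 6.07 and 6.08 in DMSO, 6.02, 6.04, 6.23 and 5.98 at the IC50 and 7.04, 6.87, 7.11 and 7.16 with G-1 1 µM. G-1 1 µM stood apart from the other treatments, which overlapped, with changes of 0.90 ± 0.12 (adjusted p = 5.24e-05) and 1.05 ± 0.12 (adjusted p = 3.55e-07). Its partner *BIRC5* (survivin) rose by 0.52 and 0.62. The complex's kinase *AURKB* was not called at 24 h (0.18) and rose at 72 h (0.58), and its scaffold *INCENP* rose at 24 h (0.57) and was not called at 72 h (0.38, adjusted p = 0.0537). *SGO1* and *SGO2*, the shugoshins that protect centromeric cohesin, and *CDCA5* (sororin), which stabilizes cohesin, rose by 0.43, 0.53 and 0.46 at 24 h and by 0.89, 0.98 and 0.97 at 72 h.

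Of the 8 checkpoint genes, 4 rose at 24 h and 6 at 72 h. *BUB1B*, which encodes BUBR1, a part of the complex that inhibits APC/C, was at 4.05, 4.24, 3.87 and 3.72 in DMSO, 4.15, 4.17, 3.83 and 3.71 with G-1 IC50 and 4.91, 4.87, 4.74 and 4.59 with G-1 1 µM at 24 h. At 72 h it was at 4.03, 4.10, 4.25 and 4.08 in DMSO, 4.18, 4.17, 4.38 and 4.04 at the IC50 and 4.95, 4.71, 4.97 and 4.97 with G-1 1 µM. All G-1 1 µM arrays of *BUB1B* lay above those of the other treatments of their duration. *TTK*, the kinase MPS1 that starts checkpoint signaling, was at 2.61, 2.97, 2.50 and 2.56 in DMSO, 2.70, 2.55, 2.36 and 2.44 at the IC50 and 3.50, 3.54, 3.33 and 3.13 with G-1 1 µM at 24 h. At 72 h *TTK* was at 2.37, 2.49, 2.41 and 2.32 in DMSO, 2.36, 2.68, 2.62 and 2.47 at the IC50 and 3.84, 3.33, 3.65 and 3.67 with G-1 1 µM. *TTK* likewise did not overlap, and its G-1 1 µM arrays were the highest at both durations. *BUB1B* changed by 0.81 ± 0.12 (adjusted p = 8.32e-05) and 0.79 ± 0.12 (adjusted p = 7.01e-06), and *TTK* by 0.72 ± 0.12 (adjusted p = 0.000254) and 1.23 ± 0.12 (adjusted p = 2.15e-08). *BUB1*, the kinetochore kinase, rose by 0.51 and 0.80. *MAD2L1*, the checkpoint protein that binds *CDC20*, was not called at 24 h (0.28) and rose by 1.02 at 72 h. *ZWILCH* and *ZW10*, subunits of the RZZ complex, which brings MAD proteins and dynein to the kinetochore, were at 0.34, called as higher, and 0.08, not called, at 24 h and rose by 1.12 and 0.38 at 72 h. *BUB3*, which brings *BUB1* and BUBR1 to the kinetochore, and *MAD1L1*, the partner of *MAD2L1*, were not called by their brightest probes, at -0.02 and 0.31 at 24 h and -0.02 and 0.18 at 72 h.

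In the kinetochore group 5 of 8 genes rose at each duration. *CENPA*, the histone H3 variant that marks centromeres, was at 1.74, 2.02, 1.63 and 1.44 in DMSO, 1.75, 1.80, 1.41 and 1.61 with G-1 IC50 and 2.52, 2.77, 2.52 and 2.35 with G-1 1 µM at 24 h. At 72 h *CENPA* was at 1.75, 1.82, 1.63 and 1.76 in DMSO, 1.83, 1.88, 1.97 and 1.91 at the IC50 and 3.07, 2.45, 2.98 and 2.96 with G-1 1 µM. It separated G-1 1 µM from the rest at both durations, and at 72 h the IC50 arrays lay just above DMSO. The changes with G-1 1 µM were 0.83 ± 0.13 (adjusted p = 0.000137) and 1.12 ± 0.13 (adjusted p = 2.06e-07). *CENPE*, a kinesin that moves chromosomes to the spindle equator, rose by 0.60 and 0.76. Of the *NDC80* complex, which grips microtubules, *NDC80*, *NUF2* and *SPC25* rose by 0.56, 0.51 and 0.41 at 24 h and by 0.61, 1.08 and 0.62 at 72 h, whereas the fourth subunit *SPC24* was not called by its brightest probe (0.10 and -0.07). *KNL1*, the scaffold on which BUB proteins assemble, and *CENPF*, a large kinetochore protein, were not called, at 0.17 and 0.02 at 72 h.

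Of the 5 genes of mitotic exit, 3 rose at both durations. *CDC20*, the APC/C activator that the checkpoint restrains, read 4.23, 4.42, 4.09 and 3.86 in DMSO, 4.25, 4.27, 3.95 and 3.80 with G-1 IC50 and 5.41, 5.37, 5.31 and 4.88 with G-1 1 µM at 24 h. At 72 h it read 4.11, 4.11, 4.34 and 4.11 in DMSO, 4.48, 4.18, 4.23 and 4.17 at the IC50 and 5.55, 5.43, 5.62 and 5.55 with G-1 1 µM. The lowest G-1 1 µM array was above the highest of DMSO and IC50 at both durations, and *CDC20* rose by 1.10 ± 0.13 (adjusted p = 1.21e-05) and 1.37 ± 0.13 (adjusted p = 1.58e-08), or 2.14-fold and 2.58-fold. Its counterpart *FZR1*, which activates APC/C late in mitosis and in G1, was at 0.00 at 24 h, not called, and at -0.16 ± 0.07 at 72 h (adjusted p = 0.0427), where it was called as lower, from 3.51, 3.55, 3.65 and 3.71 in DMSO to 3.40, 3.50, 3.44 and 3.44 with G-1 1 µM. The groups did not overlap, and the call was lost in 8 of the alternative settings. Securin (*PTTG1*) rose by 0.47 and 0.43 and separase (*ESPL1*), which securin inhibits, by 0.76 and 0.88. *UBE2C*, a ubiquitin-conjugating enzyme of APC/C, was not called (-0.05 and 0.26).

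By the brightest probe of each gene, condensin and chromosome structure was the group with the smallest share of calls at both durations. At 24 h, 0 of 6 were called by limma, against 30.6% of all genes. There 2 had an unadjusted p under 0.05, and the t-test of the methods with |FC| above 2 called 0. At 72 h, 3 of 6 were called, all as higher, against 35.2% of all genes called higher. A dimmer probe of *NCAPD2* was called as higher at 24 h, and dimmer probes of *NCAPD2* and *SMC2* were at 72 h. *NCAPH*, a condensin subunit, was at -3.08, -2.62, -3.51 and -3.03 in DMSO, -2.71, -2.78, -3.42 and -2.96 with G-1 IC50 and -2.17, -2.06, -2.22 and -3.21 with G-1 1 µM at 24 h. The arrays of 72 h read -3.09, -2.63, -2.65 and -3.04 in DMSO, -2.59, -3.57, -2.31 and -2.80 at the IC50 and -1.96, -2.0, -2.08 and -1.96 with G-1 1 µM. It was well above background on all 4 arrays only with G-1 1 µM 72 h, and on 1 array of DMSO 24 h and 2 of DMSO 72 h. It passed the filter on dim probes only through the group in which it was high, so its count among the called members at 72 h is no support for the others. Its log2 fold change, 0.65 at 24 h with overlapping groups and 0.85 at 72 h without overlap, was measured against DMSO arrays mostly not well above background. With dim probes kept, the median change of all genes was also higher, 0.19 at 24 h and 0.25 at 72 h, in place of 0.04 and 0.03. Its part in the change of *NCAPH* was not tested. The condensin genes *SMC4* and *NCAPG* rose at 72 h by 0.56 and 0.38, the latter with overlapping groups. *NCAPD2* and *SMC2* were at 0.16 and 0.09, not called by their brightest probes. *TOP2A*, the topoisomerase that untangles sister chromatids, was at -0.36 and 0.09, not called at either duration.

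Of the 3 cytokinesis genes, *PRC1* rose at both durations and *ECT2* and *ANLN* at 72 h. *PRC1*, which bundles the microtubules of the midzone, was at 6.43, 6.41, 6.23 and 6.10 in DMSO, 6.49, 6.38, 6.21 and 6.19 with G-1 IC50 and 6.95, 6.91, 6.83 and 6.59 with G-1 1 µM at 24 h. At 72 h *PRC1* was at 6.35, 6.32, 6.57 and 6.38 in DMSO, 6.52, 6.36, 6.70 and 6.48 at the IC50 and 6.85, 6.87, 7.13 and 7.06 with G-1 1 µM. The G-1 1 µM arrays of *PRC1* lay above all others of their duration. *ANLN*, anillin, which organizes the contractile ring, was at 2.71, 3.57, 2.64 and 2.73 in DMSO, 2.96, 2.79, 2.40 and 2.93 at the IC50 and 3.25, 3.51, 3.22 and 3.08 with G-1 1 µM at 24 h. At 72 h *ANLN* was at 2.74, 2.78, 2.95 and 2.47 in DMSO, 2.98, 2.79, 3.12 and 3.21 at the IC50 and 4.35, 3.44, 3.94 and 4.01 with G-1 1 µM. *ANLN* overlapped at 24 h, where replicate 2 of DMSO was higher than all arrays of G-1 1 µM, and not at 72 h. The changes were 0.53 ± 0.10 (adjusted p = 0.000807) and 0.57 ± 0.10 (adjusted p = 5.55e-05) for *PRC1*, and 0.36 ± 0.20 (adjusted p = 0.176) and 1.21 ± 0.20 (adjusted p = 1.95e-05) for *ANLN*. *ECT2*, which helps to start the ingression of the cleavage furrow, was at 0.32 at 24 h, not called, and rose by 0.97 at 72 h.

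**Figure D3:**
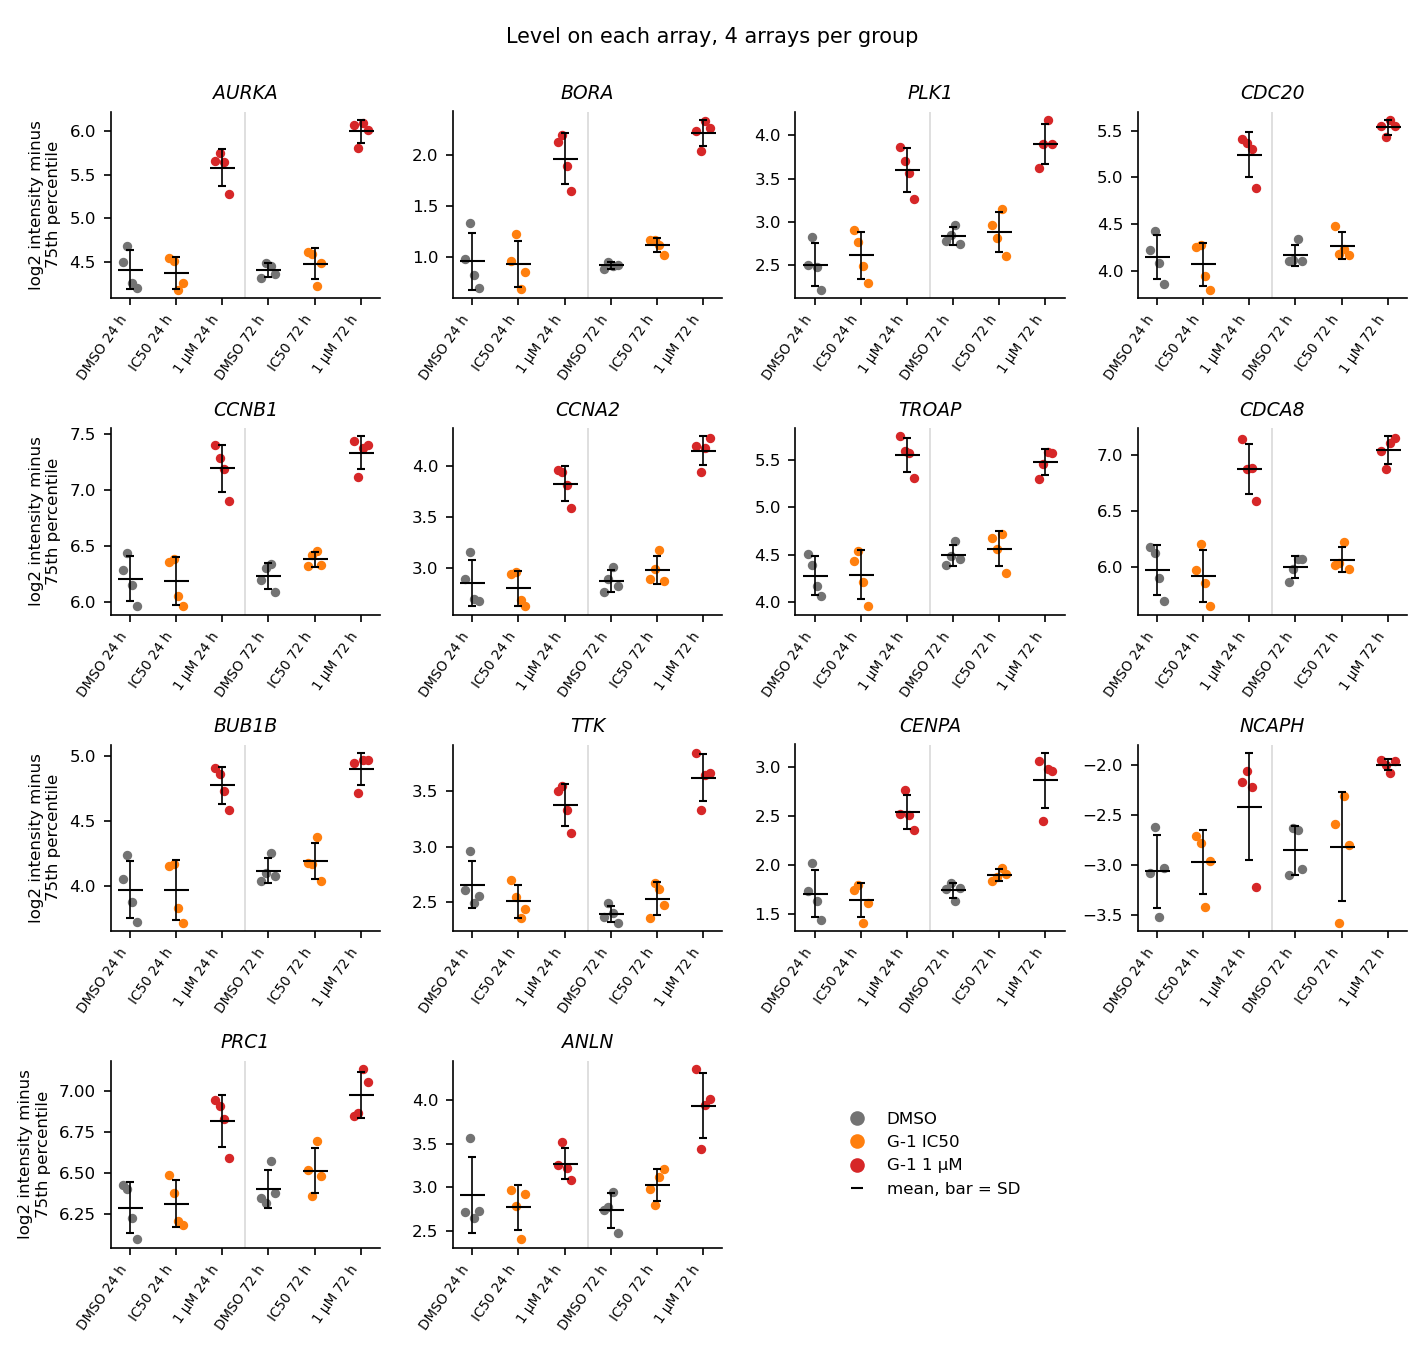
Level of 14 mitotic genes on each of the 24 arrays (vertical axes, log2 intensity minus the 75th percentile of the array), with points for arrays and bars for the mean and SD of 4 arrays per group. In 12 of the 14 genes the G-1 1 µM arrays lie above the DMSO arrays at both 24 h and 72 h, the exceptions being *NCAPH* and *ANLN*, which overlap at 24 h.

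For 13 members more than 1 probe was tested, and no member had probes called in opposite directions. At 72 h of G-1 1 µM all probes of 6 of them were called in the same direction and some probes of a further 6. *BUB3* was at -0.02 by its brightest probe, and a probe for another of its transcripts rose by 0.73 (adjusted p = 1.37e-08). *NCAPD2*, *SPC24*, *ASPM* and *SMC2* likewise had a dimmer probe that rose, by 0.39, 0.42, 0.49 and 0.71, beside a brightest probe that was not called. *SMC4*, called by its brightest probe, had a second probe at 0.25 that was not. At 24 h, *BUB3*, *CDK1*, *NCAPD2* and *SPC24* had a dimmer probe that was called as higher beside a brightest probe that was not called. The probe with the smallest p in place of the brightest gave 37 higher members at 24 h and 46 at 72 h.

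Some calls at 1 µM were lost when a single array was left out. At 24 h, *PLK4* was not called (0.33 to 0.42) without replicate 1, 3 or 4 of DMSO or replicate 1, 2 or 3 of G-1 1 µM, nor with the replicate number as a block (adjusted p = 0.0545), and *NUF2* was not (0.43 to 0.49) without replicate 3 or 4 of DMSO or 1 or 2 of G-1 1 µM. *CDCA5* was not called (0.38 to 0.42) without replicate 4 of DMSO or 1 or 2 of G-1 1 µM, and *SGO2* was not (0.41 to 0.49) without replicate 3 or 4 of DMSO or 2 of G-1 1 µM. *NEK2* lost its call (0.46 and 0.47) without replicate 3 or 4 of DMSO, *INCENP* (0.39 and 0.51) without replicate 1 or 2 of G-1 1 µM, *SPC25* (0.32) without replicate 4 of DMSO and *ZWILCH* (0.26) without replicate 2 of G-1 1 µM. At 72 h, *CDC25C* lost its call (0.29 and 0.31) without replicate 4 of DMSO or 1 of G-1 1 µM. *NCAPG* (0.33 to 0.38) did so without replicate 1 or 3 of DMSO or 1, 3 or 4 of G-1 1 µM, and *FZR1* (-0.16 to -0.13) without replicate 3 or 4 of DMSO or 1, 3 or 4 of G-1 1 µM.

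The change was larger at 72 h than at 24 h for 41 of the 55 members and smaller for 14. The members moved together from array to array, so this is not a count of independent changes. The interaction between the 1 µM dose and duration, which is the log2 fold change at 72 h minus that at 24 h and cancels any constant offset of the third slide, was called for 12 members, 11 with a larger and 1 with a smaller value at 72 h. Over all genes tested, 34.1% were called, 16.4% higher and 17.7% lower, so that the members' share of 21.8% was below that of all genes, and their higher calls, 20.0%, were near it. The median interaction was 0.21 over the members and 0.00 over all genes.

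By role, 4 of the 8 entry genes were called, 3 higher and 1 lower, 4 of the 8 checkpoint genes, 2 of the 3 cytokinesis genes and 1 gene each of the spindle pole and of the passenger and cohesion group, with none in the other groups, and no role group was tested against another. Of the checkpoint genes, *ZWILCH* (0.77 ± 0.14, SE, adjusted p = 0.000385), *MAD2L1* (0.74 ± 0.18, adjusted p = 0.00381), *TTK* (0.51 ± 0.17, adjusted p = 0.0247) and *ZW10* (0.30 ± 0.11, adjusted p = 0.0387) had the larger change at 72 h. *PLK4* (0.77) and *ANLN* (0.85) had interactions of similar size, followed by *ECT2* (0.65), *MASTL* (0.60), *SGO1* (0.46), *CDK1* (0.40) and *FOXM1* (0.36). *CDC25B* went the other way (-0.46 ± 0.15, adjusted p = 0.0218). For *AURKA*, *BORA*, *PLK1* and *CDC20* the interaction was not called, at 0.42 ± 0.17 (adjusted p = 0.0658), 0.29 ± 0.18, -0.03 ± 0.22 and 0.27 ± 0.18. All these values are those of the brightest probes. The dimmer second probe of *CDK1* rose less at 72 h than at 24 h, and that of *PLK1* rose more at 72 h. The 12 calls were sensitive to single arrays. Without replicate 2 of DMSO 24 h, the array on which *ANLN* stood out, 4 members were called, without replicate 4 of G-1 1 µM 24 h 5, without replicate 1 of G-1 1 µM 72 h 5, and without its replicate 4 7. With scaling to the 50th percentile 3 were called, and without the filter on dim probes 4 were called. *ZWILCH*, *MAD2L1* and *PLK4* passed under every alternative setting without a threshold on fold change.

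**Figure D4:**
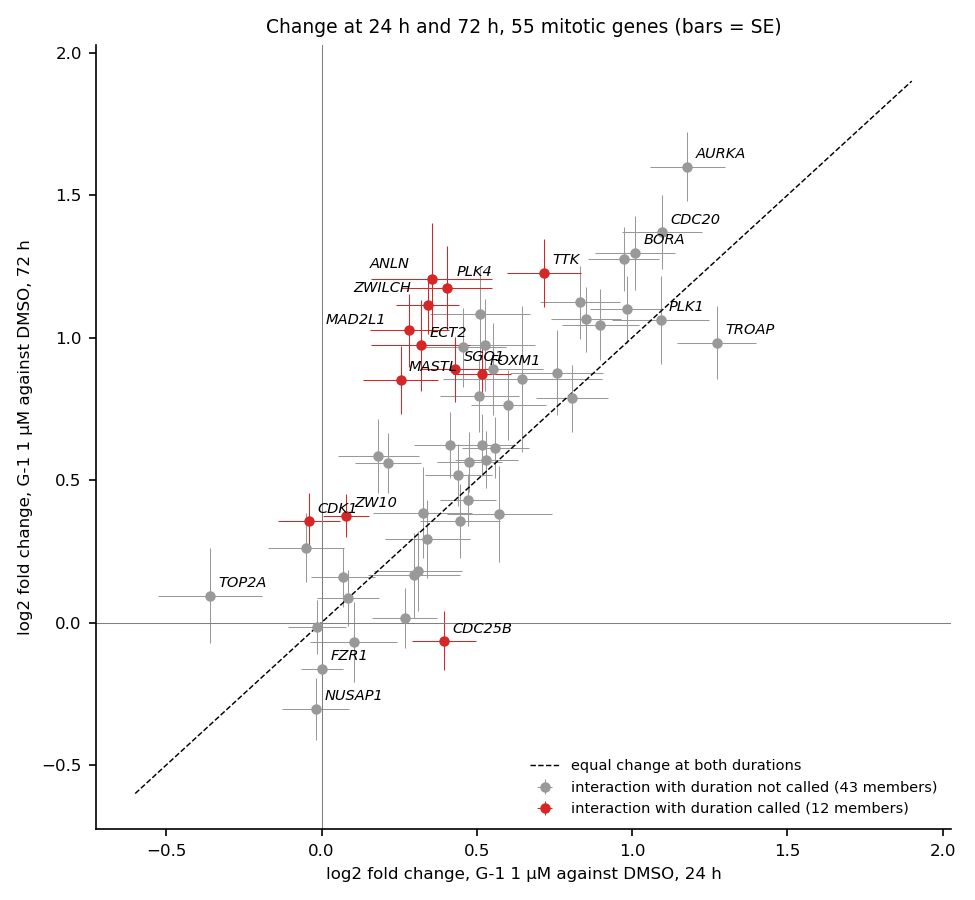
Log2 fold change of the 55 mitotic genes with G-1 1 µM against DMSO at 24 h (horizontal axis) and at 72 h (vertical axis), with SE bars, and the dashed line of equal change. The 12 genes with a called interaction are in red, 11 of them above the line and *CDC25B* below it. Each gene is shown by its brightest probe, and the 5 with the largest changes at 24 h, *TROAP*, *AURKA*, *CDC20*, *PLK1* and *BORA*, are in grey.

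Within the third slide, where both durations of G-1 1 µM lay side by side, 15 members were higher at 72 h than at 24 h and 1, *CDC25B*, was lower (18.9% and 24.3% of all genes). *AURKA* rose within the slide by 0.41 ± 0.12 (adjusted p = 0.00941), from the highest value of 5.75 at 24 h to the lowest of 5.81 at 72 h, without overlap. *MAD2L1* (0.60), *ZWILCH* (0.61), *PLK4* (0.52), *CDCA5* (0.49), *AURKB* (0.40) and *UBE2C* (0.35) were also called higher without overlap. With *CDC20* (0.29, adjusted p = 0.0811, not called) they make 8 members that did not overlap upward (17.0% of all genes), beside *CDC25B* downward (22.5%). In DMSO itself, 0 of the 55 members were called between 72 h and 24 h by limma (3.34% of all genes), 5 had an unadjusted p under 0.05, and the t-test of the methods with |FC| above 2 called 0. *TTK* was lower in all DMSO arrays at 72 h than at 24 h, by -0.26, the only member without overlap (8.44% of all genes lay lower so).

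At the IC50 dose 0 members were called at either duration by limma. Over all genes, 0.246% were called at 24 h and 0.906% at 72 h. No member had an unadjusted p under 0.05 at either duration, and the t-test of the methods with |FC| above 2 called 0. The members' log2 fold changes lay between -0.26 and 0.14 at 24 h, where 46 of 55 were below 0 (median -0.07), and between -0.18 and 0.29 at 72 h, where 46 were above 0 (median 0.08). Over all genes the medians were -0.01 and -0.02. Because the members moved together between arrays, these counts of signs are not counts of independent genes. Scaling to the 50th percentile moved the members' median at 24 h to 0.02, with that of all genes at 0.07. At 72 h the IC50 arrays lay above the DMSO arrays without overlap for 7 members, *CDK1*, *CCNB2*, *BORA*, *HMMR*, *CENPA*, *SPC25* and *NCAPD2* (2.66% of all genes lay so), and at 24 h for none (1.58% of all genes). With the slide as a block, which these comparisons allow, the calls were also 0 at both durations.

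Set directly against the IC50 dose, G-1 1 µM had 38 higher members at 24 h (69.1%, against 18.2% of all genes called higher) and 39 higher and 1 lower at 72 h (70.9%, against 35.9% of all genes called higher), the lower one being *NUSAP1* (29.3% of all genes were lower). *AURKA* differed between the doses by 1.21 ± 0.12 (adjusted p = 8.01e-06) at 24 h and 1.52 ± 0.12 (adjusted p = 1.69e-09) at 72 h. *BORA* differed by 1.03 and 1.10, *PLK1* by 0.98 and 1.01, and *CDC20* by 1.18 and 1.27. Scaling to the 50th percentile moved the median of all genes from 0.05 to -0.12 at 24 h and from 0.05 to -0.11 at 72 h, which left 22 and 34 higher members, and 2 lower ones at 72 h. The members' median minus that of all genes was 0.47 at 24 h and 0.61 at 72 h, which is by construction the same under both scalings. These comparisons and those with DMSO share the G-1 1 µM arrays.

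Beyond the 55 members, 92 genes of the same machinery were followed in 8 lists. With G-1 1 µM, 40 rose (43.5%, against 20.0% of all genes) and 6 fell at 24 h, and 61 rose (66.3%, against 35.2% of all genes) and 8 fell at 72 h, with medians of 0.23 and 0.39. Of 9 regulators of entry, 5 rose at 24 h and 7 at 72 h, led by *CDC25A* (1.23), the phosphatase of G1/S and G2/M, and *GTSE1* (0.86), a microtubule-binding protein of G2. Of 11 outer kinetochore and checkpoint partners, 6 rose and 1 fell at 24 h, and 9 rose at 72 h, led by *SKA1* (1.14), which couples kinetochores to microtubules, and *SPDL1* (1.12), spindly, which recruits dynein. Of 17 centromere and inner kinetochore genes, 7 rose and 2 fell at 24 h, and 13 rose and 1 fell at 72 h, led by *CENPL* (1.10) and *MIS18A* (0.94), which licenses *CENPA* loading.

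Of 15 spindle and cytokinesis partners, 12 rose at 24 h, and 11 rose and 2 fell at 72 h, led by *ARHGAP11A* (1.27) and *DEPDC1* (0.87). Of 10 genes of the DREAM, MuvB and B-MYB complexes, which regulate CHR promoters, 5 rose at 24 h and 8 at 72 h. The largest called changes at 72 h were those of the DREAM genes *RBL1* (0.89), which encodes the pocket protein p107, and *E2F4* (0.64). The condensin II genes *NCAPD3* (0.65), *NCAPG2* (0.51) and *NCAPH2* (0.25) all rose at 72 h, and 1 of the 3 did at 24 h. The lists of the APC/C and of cohesin, complexes that act in other phases as well, had the lowest medians at 72 h. Of 15 APC/C genes, 4 rose (26.7%, near the 20.0% of all genes) and 1 fell at 24 h, and 8 rose and 2 fell at 72 h (median 0.21), among them *UBE2S* (0.77), which extends ubiquitin chains, and *ANAPC16* (-0.64). Of 12 cohesin genes, 2 fell at 24 h, and 2 rose (16.7%, below the 35.2% of all genes) and 3 fell at 72 h (median 0.10), led by *STAG1* (0.98) and *MAU2* (-0.51).

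As a comparison from an earlier phase of the cycle, 28 genes of DNA replication and G1/S were followed. At 24 h, 9 of 28 rose (32.1%) beside 60.0% of the mitotic genes, with a median of 0.26 beside 0.44. At 72 h, 24 of 28 rose (85.7%) beside 74.5%, with a median of 0.51 beside 0.76, led by *RRM2* (0.99), a subunit of ribonucleotide reductase, and *MCM10* (0.85), a factor of replication origins. None of the 28 passed |FC| above 2 at either duration, where 5 and 15 of the mitotic genes did. The difference between the lists was not tested, and the mitotic list holds the genes that the study named from these arrays by that threshold.

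**Figure D5:**
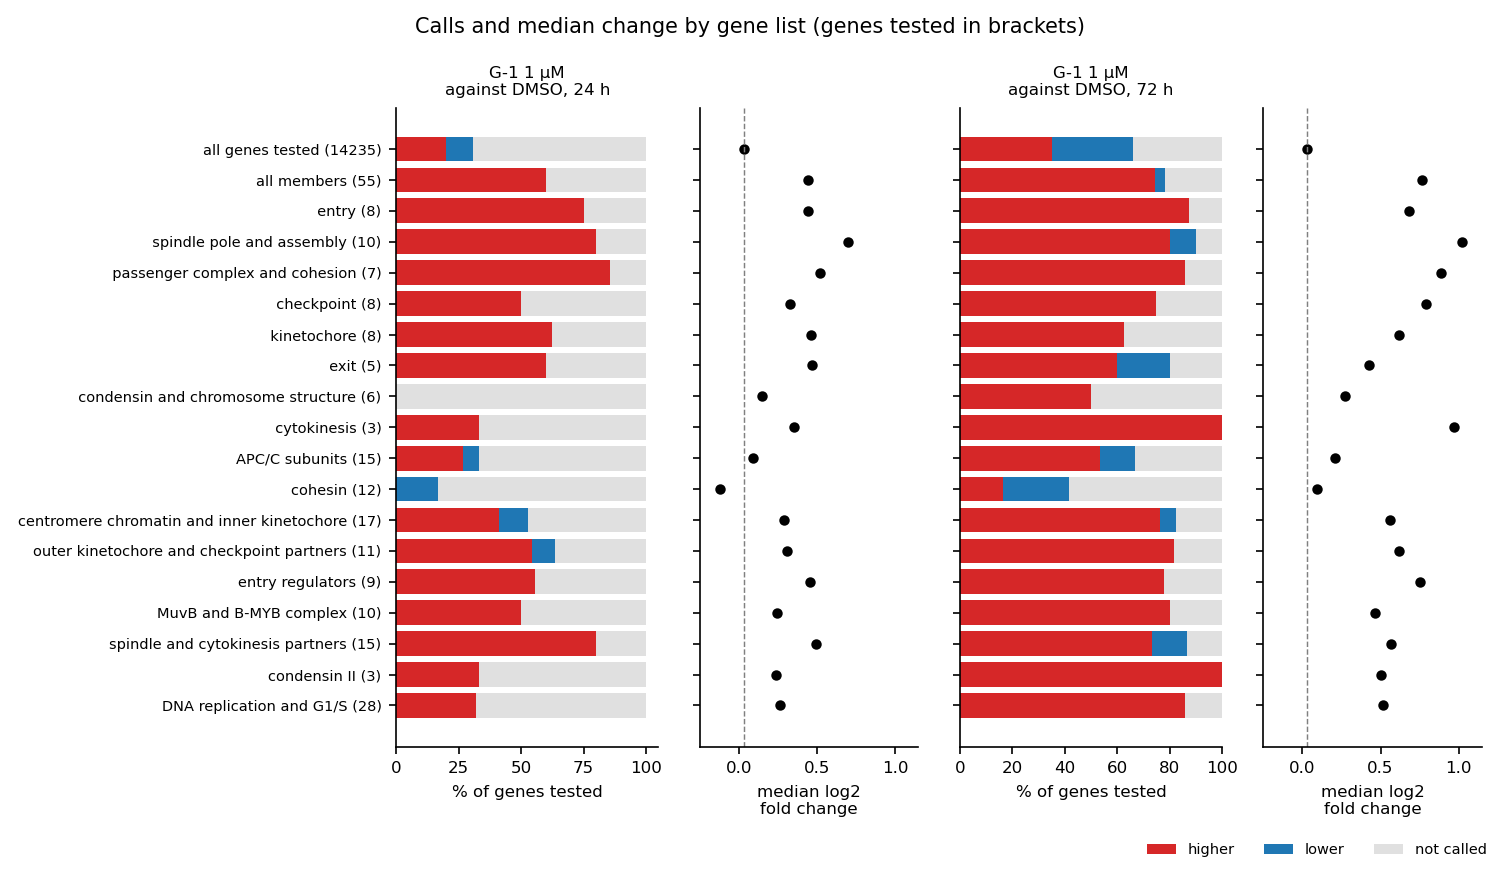
Share of tested genes called higher (red), lower (blue) or not called (grey) for the 1 µM dose against DMSO at both durations (bars, %), and the median log2 fold change of each list (points), with the dashed line at the median of all 14235 genes. The mitotic role groups and most partner lists have medians to the right of the dashed line at both durations, while the cohesin list lies to its left at 24 h. By brightest probes, condensin and chromosome structure is the role group without a call at 24 h.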

How the data were processed

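RNA of 24 cultures was hybridized to 1-colour Agilent microarrays. The authors deposited, for every spot, the intensity written by Feature Extraction (version 10.7.3.1 per the labels, 12.1.1.1 per the file headers), background-subtracted but not normalized between arrays, with other deposited flags (0 or 1) that mark a spot as saturated, uneven or well above background. The authors also deposited log2 values of each probe, which after centring differed from the values used here by a median of 0.0019. Spots flagged as not uniform were left out, spots of a probe were averaged as log2 intensity, and each array was shifted by its 75th percentile. Probes were named through their RefSeq accession (35032 of 58201 probes, 24847 symbols). A probe was tested if every array of 1 or more groups showed it well above background, which held for 22970.

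The model, fitted with limma 3.58.1 (R 4.3.3), had the means of the 6 groups and took in all 24 arrays, and p was adjusted after Benjamini and Hochberg (BH) over the 22970 probes. The script was tested on simulated data. A gene was represented by its brightest probe. Replicates correlated between 0.990 and 0.996, and arrays have no read depth, so their number limits the precision. The members and lists were chosen with earlier results of these data known. *AURKA*, *BORA*, *PLK1* and *CDC20*, which the study names, and in each role group the member with the largest absolute log2 fold change with the 1 µM dose, at either duration, were described in full, and of each other list at most 2 genes were named, those with the largest called change at 72 h. The labels call the replicates independent experiments. Alternatives were the 50th percentile, quantile normalization, normexp correction of the median spot signal with an offset of 50, other filters on dim probes, the deposited log2 table, fits to only the arrays compared, an intensity trend, a block for replicate number or for slide, |FC| above 2, the probe with the smallest p, the methods' t-test and leaving out single arrays. The comparison within the third slide was added later. Promoter letters were searched by script in the RefSeq table, with no test.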

Additional observations from a re-analysis of the deposited data

Results flagged for a closer look

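Each group of 4 arrays of the 14 genes described in full, 84 in all, was searched for an array far from the other 3, by its gap to the nearest array as a share of the range of the group. The gap passed the 95% critical value of Dixon's test for 4 samples, 0.829, in 5 of them, and chance flags about 1 in 20. These were *CDC20* on replicate 3 of DMSO 72 h (0.963), *BUB1B* on replicate 2 of G-1 1 µM 72 h (0.922), *ANLN* on replicate 2 of DMSO 24 h (0.912), *NCAPH* on replicate 4 of G-1 1 µM 24 h (0.865) and *CENPA* on replicate 2 of G-1 1 µM 72 h (0.829, just past the value). *CDC20* and *ANLN* were high on these arrays, and *BUB1B*, *NCAPH* and *CENPA* were low.

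For 12 of the 55 members the log2 fold change of G-1 1 µM against DMSO differed between 72 h and 24 h by the interaction term of limma, for brightest probes. The share over all genes tested was larger, at 34.1%. Of these 12 calls, 9 were lost under at least 1 alternative setting without a fold threshold. The interaction was 0.85 for *ANLN*, 0.77 for *ZWILCH*, 0.77 for *PLK4*, 0.74 for *MAD2L1*, 0.65 for *ECT2*, 0.60 for *MASTL*, 0.51 for *TTK*, 0.46 for *SGO1*, 0.40 for *CDK1*, 0.36 for *FOXM1*, 0.30 for *ZW10* and -0.46 for *CDC25B*.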

How the results depend on the processing

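The counts of 0 members for both IC50 comparisons and for DMSO 72 h against 24 h were 0 under every alternative. At 24 h of G-1 1 µM against DMSO, 5 members passed |FC| above 2, 5 the t-test of the methods with or without adjustment, and 21 the scaling to the 50th percentile, in place of 33. At 72 h, 15 passed |FC| above 2 and 15 either form of the t-test, in place of 43. Against the IC50, 6 passed these rules and 22 the 50th percentile at 24 h, in place of 38, and 10 passed them at 72 h, in place of 40. The interaction was called for 0 members with |FC| above 2, 3 with the 50th percentile and 4 without the filter on dim probes, in place of 12. The rules with |FC| are stricter by construction, and the cause of the other shifts was not tested. With 1 array left out, the counts were between 27 and 38 at 24 h and 41 and 44 at 72 h against DMSO, 34 and 41 and 39 and 43 against the IC50, and 4 and 16 for the interaction. For these single-array settings the remaining arrays of a group share the pooled spread of all groups. Of the 33 members called at 24 h and followed singly, 13 lost the call under at least 1 setting without a fold threshold, of the 43 called at 72 h 5 did, and of the 12 interactions 9, and no called value changed sign. Arrays of the same replicate number had a median correlation of their deviations of 0.12 (from -0.32 to 0.53, 33 of 60 pairs over 0.1), against -0.04 for other numbers, and 15 of 24 correlated best with their own number. This hints at shared variation, but the labels tie no number to a shared batch and not every pair passed 0.1, so the numbers were not used as pairs. With the replicate block the counts were 34 and 44 against DMSO, 38 and 42 against the IC50, 14 for the interaction and 0 for the IC50 and DMSO comparisons, and among members followed singly *PLK4* at 24 h lost its call. Dim probes limit *NCAPH*, whose DMSO values lie near the background.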

Other observations

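The mitotic genes moved together between the arrays of a group. On replicate 4 of DMSO 24 h, 40 of the 55 members had their lowest value of the group, with a median deviation from the group mean of -0.21 log2, while 37 had their highest on replicate 2 (0.21). Over all 14235 genes the shares were 19.9% and 23.6%. Replicate 2 of DMSO 24 h lay on the second slide and the rest of its group on the first, so culture and slide cannot be told apart for it. In G-1 1 µM 24 h, replicate 4 was lowest for 45 of the 55 members (-0.23), against 24.7% of all genes, and in G-1 1 µM 72 h replicate 2 was lowest for 44 members (-0.19), against 40.4% of all genes. In G-1 IC50 24 h, 40 members had their highest value on replicate 2 (0.18), against 27.2% of all genes. The values of the members on an array are thus not independent of each other, and each of the 14 genes described array by array had its lowest G-1 1 µM value at 24 h on replicate 4.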
